A study of Mus musculus with 24 samples.

Results

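The interleukin-1 family genes followed here are Il1a, Il1b, Il1rn, Il18, Il18bp and Il1rap, which encode 3 cytokines, 2 secreted inhibitors and a receptor subunit. They were found by symbol, through the GENCODE M21 annotation, among the 43629 Ensembl gene identifiers in each count file; 6 of 6 were present, each in a single row, and 6 of 6 passed the filter on low counts, against 12765 genes in all. The cells were mouse macrophages from wild-type C57BL/6 bone marrow, cultured 7 days in complete RPMI with 20 ng/mL CSF-1, the growth factor that drives this lineage, a treatment shared by every group. They received LPS (lipopolysaccharide, the bacterial ligand of TLR4), LPS together with 50 ng/mL IFNg (interferon gamma), 20 ng/mL IL-4 (interleukin 4), or no stimulus, for 1 h or 18 h. That makes 8 groups of 3 libraries, 24 libraries in total. The LPS dose is given as 20 or 100 ng/mL, and the labels do not say which dose belongs to which sample. LPS with IFNg and LPS alone may therefore differ in LPS dose. In comparisons of these groups, called effects of IFNg below, a difference of dose cannot be told apart from IFNg. Polyadenylated RNA was sequenced, so a value is a transcript level and not an amount of protein.

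IL-1 alpha, from Il1a, and IL-1 beta, from Il1b, signal through the same receptor, which pairs with the accessory chain encoded by Il1rap; that chain also serves the IL-33 and IL-36 receptors. The product of Il1rn, the IL-1 receptor antagonist, occupies the receptor without recruiting the accessory chain, so no signal follows. IL-18, from Il18, uses a separate receptor pair and drives interferon gamma production by lymphocytes, and the protein from Il18bp binds IL-18 in solution and neutralises it. IL-1 beta and IL-18 are made as precursors that caspase-1 cleaves in inflammasomes, while IL-1 alpha is active as a precursor and can stay in the cell or at its surface. Macrophages are a main source of these cytokines, and LPS acting on TLR4 is a classical inducer of the IL-1 genes.

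On GRCm38, Il1a (ENSMUSG00000027399) lies on chromosome 2, 129299610 to 129309972, minus strand, next to Il1b (ENSMUSG00000027398) at 129364570 to 129371139 on the same strand. Il1rn (ENSMUSG00000026981) is on the plus strand of chromosome 2, 24336853 to 24351494, with 6 annotated transcripts. Il18 (ENSMUSG00000039217) is on chromosome 9, 50554827 to 50581840, plus strand, and Il18bp (ENSMUSG00000070427) on chromosome 7, 102014885 to 102018690, minus strand. Il1rap (ENSMUSG00000022514) spans chromosome 16, 26581704 to 26730117, plus strand, with 7 annotated transcripts. All are protein-coding, and the values are sums over the exons of a gene, so the secreted and intracellular forms of Il1rn, and the membrane and soluble forms of Il1rap, are not separated.

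The bases just upstream of annotated starts are shown for the genes whose timing differed most, the early pair Il1a and Il1b, Il1rn at 2 of its 3 annotated windows, and the late gene Il18bp. Each is a window of 250 bases that ends at the base before the transcript start, read 5′ to 3′ on the gene's strand from RefSeq on GRCm38.p6. Capitals mark matches to a motif. The windows are chr2:129309973-129310222 (minus strand) for Il1a, chr2:129371140-129371389 (minus) for Il1b, chr2:24336610-24336859 (plus) and chr2:24345041-24345290 (plus) for Il1rn, and chr7:102018233-102018482 (minus) for Il18bp. The third Il1rn window, chr2:24345121-24345370, overlaps the second and is not shown. The second Il1rn window and the Il18bp window lie inside the gene spans given above, so they are upstream of a RefSeq start but not of the whole gene.
Il1a: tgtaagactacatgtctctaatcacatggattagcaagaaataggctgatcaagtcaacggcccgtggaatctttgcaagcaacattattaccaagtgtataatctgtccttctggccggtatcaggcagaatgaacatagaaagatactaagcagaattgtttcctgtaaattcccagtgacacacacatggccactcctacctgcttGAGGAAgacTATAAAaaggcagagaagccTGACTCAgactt
Il1b: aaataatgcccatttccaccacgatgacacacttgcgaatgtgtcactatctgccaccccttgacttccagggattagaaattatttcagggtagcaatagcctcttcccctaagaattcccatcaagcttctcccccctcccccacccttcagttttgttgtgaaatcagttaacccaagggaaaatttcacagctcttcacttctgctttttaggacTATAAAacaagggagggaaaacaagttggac
Il1rn, first window: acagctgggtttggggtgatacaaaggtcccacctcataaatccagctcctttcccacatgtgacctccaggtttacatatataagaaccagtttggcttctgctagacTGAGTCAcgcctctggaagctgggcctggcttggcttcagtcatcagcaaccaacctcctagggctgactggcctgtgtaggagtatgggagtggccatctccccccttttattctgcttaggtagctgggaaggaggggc
Il1rn, second window: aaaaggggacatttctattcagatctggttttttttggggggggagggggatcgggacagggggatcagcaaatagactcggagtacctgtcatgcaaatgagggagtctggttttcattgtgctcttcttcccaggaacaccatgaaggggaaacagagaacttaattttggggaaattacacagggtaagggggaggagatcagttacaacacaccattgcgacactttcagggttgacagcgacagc
Il18bp: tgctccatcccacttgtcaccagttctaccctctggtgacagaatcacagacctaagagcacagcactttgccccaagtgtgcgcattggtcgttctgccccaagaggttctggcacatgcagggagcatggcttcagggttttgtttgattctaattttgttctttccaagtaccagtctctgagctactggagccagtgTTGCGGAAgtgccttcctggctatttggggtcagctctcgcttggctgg

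The motifs searched, on both strands, were AP-1 as TGANTCA, the GAS element as TTCNNNGAA, the ISRE core as GAAA, any 2 bases and GAAA, C/EBP as TTNNGCAA, PU.1 as GAGGAA, the TATA box as TATAAA, and the NF-kappaB consensus by its name alone. The Il1a window held GAGGAA at -41 to -36, TATAAA at -32 to -27 and an AP-1 match at -12 to -6, counted from the start. The Il1b window held TATAAA at -31 to -26 and none of the others. AP-1 matched once in the first Il1rn window, at -141 to -135, and no motif matched in the second. In the Il18bp window C/EBP matched on the other strand at -49 to -42. None of these matches overlapped another. Over 32851 RefSeq windows of the same length, TATAAA occurred in 12.4%, AP-1 in 6.75%, GAGGAA in 23.3%, C/EBP in 9.56%, GAS in 7.02%, the ISRE core in 2.98% and the NF-kappaB consensus in 3.9%. A match is a string of letters and not a shown binding site.

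Levels are CPM, counts per 1000000 reads after TMM scaling of the library totals, and changes are log2 fold changes ± SE with adjusted p-values from edgeR's quasi-likelihood test. Library totals ran from 4181890 to 8122945 counts. Genes with a read ran from 15450 to 19108. The most were in unstimulated 18 h replicate 3, whose group's other libraries had 16040 and 16650. Scaling by the plain totals instead of TMM moved the median of all tested genes by -0.19 (LPS) and -0.25 (LPS with IFNg) against unstimulated cells at 1 h, and by -0.41 and -0.54 at 18 h, so changes are relative to the bulk of genes. Nothing in the labels ties replicates to separate mice or cultures, so a p-value here reflects only how far these libraries vary, and that variation may be technical. In chi-square of counts per gene, LPS 18 h replicate 2 was 9.26 and 11.4 away from its group's other libraries, themselves 2.42 apart, and IL-4 18 h replicate 2 was 7.46 and 4.59 away from libraries 3.27 apart. All 7 macrophage markers were present in every group, with a sum of 10167 to 24923 CPM, while T, B and NK cell markers summed to at most 1.31 CPM and Cd3e had no count in any. Neutrophil markers summed to 14.3 to 24.1 CPM in LPS with IFNg at 18 h, where Mpo and Elane had no count, and to between 58.3 and 116 CPM elsewhere. Dendritic cell markers summed to 8.52 to 12.3 CPM in that group, where Cd209a had no count, and to 1.82 to 8.14 CPM elsewhere. Most of the sum in that group was Xcr1, at 8.34 CPM against 0.157 CPM in unstimulated 18 h cells, and Zbtb46 was at 1.31 against 0.419 CPM. Flt3 (0.241 against 1.09 CPM) and Siglech (0.115 against 0.850 CPM) went the other way, as did Cd209a. Mast cell markers summed to at most 5.58 CPM. Fibroblast markers summed to 4.44 to 7.00 CPM in LPS at 18 h and 1.71 to 2.84 CPM in LPS with IFNg at 18 h. In the other groups they summed to at most 0.784 CPM. Dcn made up most of these 18 h sums in the LPS groups, averaging 4.86 CPM after LPS and 1.16 CPM in LPS with IFNg. Col1a1, Col1a2, Col3a1 and Lum each averaged at most 0.494 CPM in every group. The part of these cell types in the results was not tested. In bulk RNA, fewer cells of a type and less RNA per cell cannot be told apart.

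At 1 h, LPS raised 3 of the 6 genes (Il1a, Il1b, Il1rn) and lowered none, where 22.2% of all tested genes were called (10.8% higher, 11.4% lower). LPS with IFNg raised 4 and lowered none (29.4% of all genes called, 14.7% each way), adding Il1rap. After IL-4 for 1 h no member was called (0 of 6 with edgeR, 0 at an unadjusted p below 0.05, 0 with DESeq2 and 0 with limma-voom), against 6.49% of all genes (3.22% higher, 3.27% lower). At 18 h most tested genes differed in both LPS groups, though not after IL-4. LPS then raised 5 members and lowered none (63.1% of genes called, 31.8% higher and 31.3% lower). LPS with IFNg raised 5 and lowered Il1rap (72.2%, with 36.1% higher and 36.1% lower). IL-4 raised Il1rn and Il1rap and lowered Il18 (39.2%, with 19% higher and 20.1% lower). The share of members called at 18 h is near that of all genes. The median member change was 5.66 for LPS and 6.43 for LPS with IFNg, beside 0.0060 and -0.0046 over all tested genes.

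**Figure D1:**
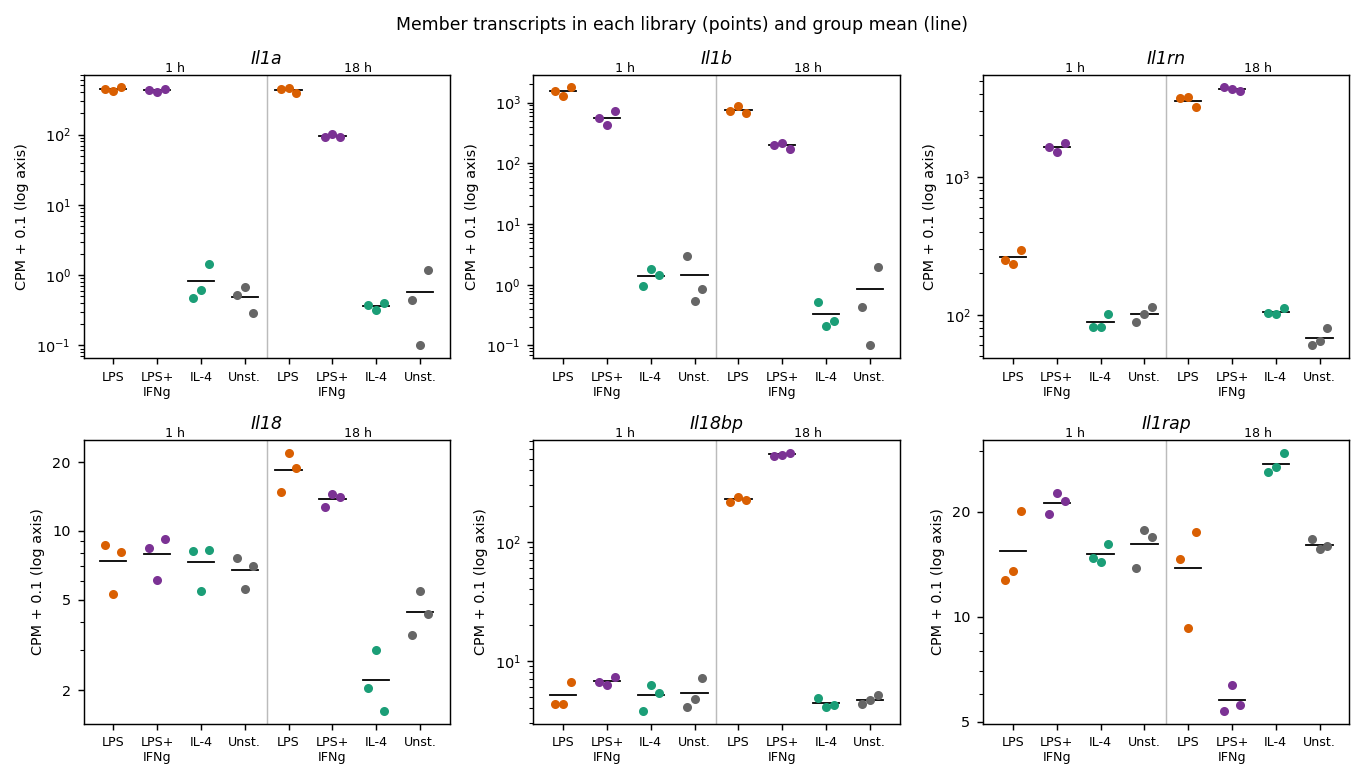
CPM + 0.1 of the 6 genes on a log axis, 1 panel a gene, with a point for each of the 24 libraries and a line at each group's mean; 1 h groups are left of the grey line and 18 h groups right. Il1a and Il1b are high in all LPS groups, Il1rn is highest at 18 h with 4351 CPM in LPS with IFNg, and Il18bp leaves its base level in the LPS groups at 18 h only.

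Il1a was silent or nearly so without LPS and was switched on within 1 h. It had 441, 417 and 469 CPM after LPS for 1 h, against 0.415, 0.588 and 0.188 CPM in unstimulated cells. The groups lie far apart, and behind the unstimulated values stand only 8 reads over 3 libraries. The change was 9.99 ± 0.54 (adjusted p = 5.2e-26). At 18 h the LPS libraries still had 441, 464 and 397 CPM, against 0.339, 0 and 1.10 CPM in unstimulated libraries, a change of 9.78 ± 0.51 (adjusted p = 6.3e-26). The 18 h and 1 h LPS libraries overlapped, with a difference of -0.027 (95% interval -0.21 to 0.15).

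With IFNg added, Il1a had 425, 401 and 452 CPM at 1 h, which overlapped LPS alone (change -0.054, 95% interval -0.23 to 0.13). At 18 h it had 91.9, 103 and 92.0 CPM in LPS with IFNg, all below the lowest LPS library, a 4.54-fold lower level (-2.18 ± 0.10, adjusted p = 3.6e-17). The effect of IFNg at 18 h minus that at 1 h was -2.13 ± 0.13 (adjusted p = 2.6e-13). Against unstimulated cells the gene was 7.59 ± 0.51 higher at 18 h in LPS with IFNg. How far it rose at 18 h rests on a few reads in unstimulated cells: without unstimulated 18 h replicate 3 the change was 11.24 for LPS and 9.06 for LPS with IFNg, and without replicate 2 it was 9.17 and 6.99. After IL-4, Il1a ranged from 0.370 to 1.33 CPM at 1 h and 0.223 to 0.305 CPM at 18 h, and neither group was called against unstimulated cells.

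Reads of Il1a have a partner on the other strand. Gm14023 shares 222 exonic bases with it and carried 19.1% to 21.7% as many reads as Il1a in each of the 4 LPS groups. Whether reads were counted by strand is not given in the sources used here, so reads of the pair cannot be told apart. Il1b overlaps the antisense gene Il1bos by 25 exonic bases, and Il1bos had at most 0.35% as many reads as Il1b in the LPS groups.

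Il1b, the other agonist, had the highest mean of the 3 cytokines at 1 h in both LPS groups and was lower at 18 h than at 1 h. It had 1575, 1307 and 1783 CPM after LPS for 1 h, against 2.90, 0.441 and 0.751 CPM in unstimulated cells. All LPS libraries were high, and 21 of the 28 unstimulated reads came from replicate 1. The change was 10.05 ± 0.51 (adjusted p = 3.7e-22), and 11.33 without that library. At 18 h LPS libraries had 731, 893 and 685 CPM, against 0.339, 0 and 1.88 CPM in unstimulated libraries (9.99 ± 0.71, adjusted p = 1.6e-21). The 18 h LPS libraries were all below the 1 h ones, 2.02-fold lower (-1.02 ± 0.16, adjusted p = 2.3e-06).

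Il1b was lower in LPS with IFNg than in LPS alone at both times. At 1 h the libraries with IFNg had 554, 427 and 719.5 CPM, all below the lowest LPS library, a 2.74-fold lower level (-1.46 ± 0.16, adjusted p = 3.1e-08). At 18 h they had 199, 219 and 174 CPM, 3.90-fold lower than LPS alone (-1.96 ± 0.16, adjusted p = 4.7e-11). The difference between these effects was -0.51 ± 0.23 and was not called (adjusted p = 0.085). However, 4 of 19 alternatives called it, with adjusted p from 2.6e-05 to 0.56 over the 19. These were no filter on low counts, a replicate block (adjusted p = 0.049), and leaving out LPS 1 h replicate 3 or LPS with IFNg 1 h replicate 2. Against unstimulated cells Il1b was still 8.60 ± 0.52 higher at 1 h and 8.02 ± 0.71 higher at 18 h in LPS with IFNg. The 1 h value was 9.89 without unstimulated 1 h replicate 1, and the 18 h values without unstimulated 18 h replicate 3 were 12.07 for LPS and 10.10 for LPS with IFNg, or 9.38 and 7.41 without replicate 2.

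The agonists differed in their ratio across groups. Per kb of merged exons, Il1b had 2.13 ± 0.154 times the level of Il1a in LPS with IFNg at 18 h (SD, n = 3) and 1.83 ± 0.144 times after LPS for 18 h. At 1 h the ratio was 1.37 ± 0.274 in LPS with IFNg and 3.63 ± 0.349 after LPS. IL-4 left Il1b at 0.864, 1.72 and 1.33 CPM at 1 h, within the unstimulated range, and at 0.417, 0.111 and 0.153 CPM at 18 h, overlapping unstimulated cells (-1.65, 95% interval -4.32 to 1.01). With so few reads, changes of several fold between IL-4 and unstimulated cells could go uncalled at this depth. Il1b in IL-4 cells was lower in all 18 h libraries than at 1 h (-2.41 ± 1.28, adjusted p = 0.068). That difference was called with DESeq2 and with no filter on low counts.

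Il1rn, the antagonist gene, differed from both agonists in being expressed before any stimulus and, with LPS, in being far higher at 18 h than at 1 h. It had 249.7, 234 and 297 CPM after LPS for 1 h, against 88.9, 100.5 and 113 CPM in unstimulated cells. The LPS libraries were all higher, by 2.58-fold (1.37 ± 0.11, adjusted p = 1.5e-11). At 18 h it had 3738, 3789 and 3202 CPM after LPS, against 59.8, 64.4 and 80.6 CPM in unstimulated cells, 52.3-fold higher (5.71 ± 0.11, adjusted p = 2.1e-25). The response at 18 h exceeded that at 1 h by 4.34 ± 0.15 (adjusted p = 2.3e-19).

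For Il1rn the difference between LPS with IFNg and LPS alone was larger at 1 h than at 18 h. At 1 h the libraries with IFNg had 1646, 1506 and 1753 CPM, several times the highest LPS library, 6.28-fold higher than LPS alone (2.65 ± 0.10, adjusted p = 3.5e-18) and 16.2-fold higher than unstimulated cells (4.02 ± 0.10). By 18 h they had 4453, 4371 and 4229.6 CPM, above all LPS libraries by a small step of 1.22-fold (0.28 ± 0.10, adjusted p = 0.018). That step lost its call with library-size scaling (0.17, adjusted p = 0.12), without LPS 18 h replicate 3 (adjusted p = 0.11) and without LPS with IFNg 18 h replicate 1 (adjusted p = 0.056). The effect of IFNg at 18 h minus that at 1 h was -2.37 ± 0.14 (adjusted p = 8.2e-14), in the direction opposite to the IFNg effect at 1 h.

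Il1rn also moved with IL-4 and with time alone. After IL-4 for 18 h it had 102, 102 and 112 CPM, against 59.8, 64.4 and 80.6 CPM in unstimulated cells, 1.54-fold higher with no overlap (0.63 ± 0.11, adjusted p = 4.7e-05). In unstimulated cells it was lower at 18 h than at 1 h (-0.56 ± 0.11, adjusted p = 0.0011), the single member called in that comparison, where 12% of all genes were called (4% higher, 8.01% lower). IL-4 cells at 18 h and at 1 h were not called different (0.26 ± 0.11, adjusted p = 0.058), but 5 of 13 alternatives called it, the replicate block among them, with adjusted p from 0.0069 to 0.22 over the 13. IL-4 at 1 h left the gene at 81.3, 81.2 and 102 CPM, overlapping unstimulated cells (-0.19, 95% interval -0.41 to 0.023).

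**Figure D2:**
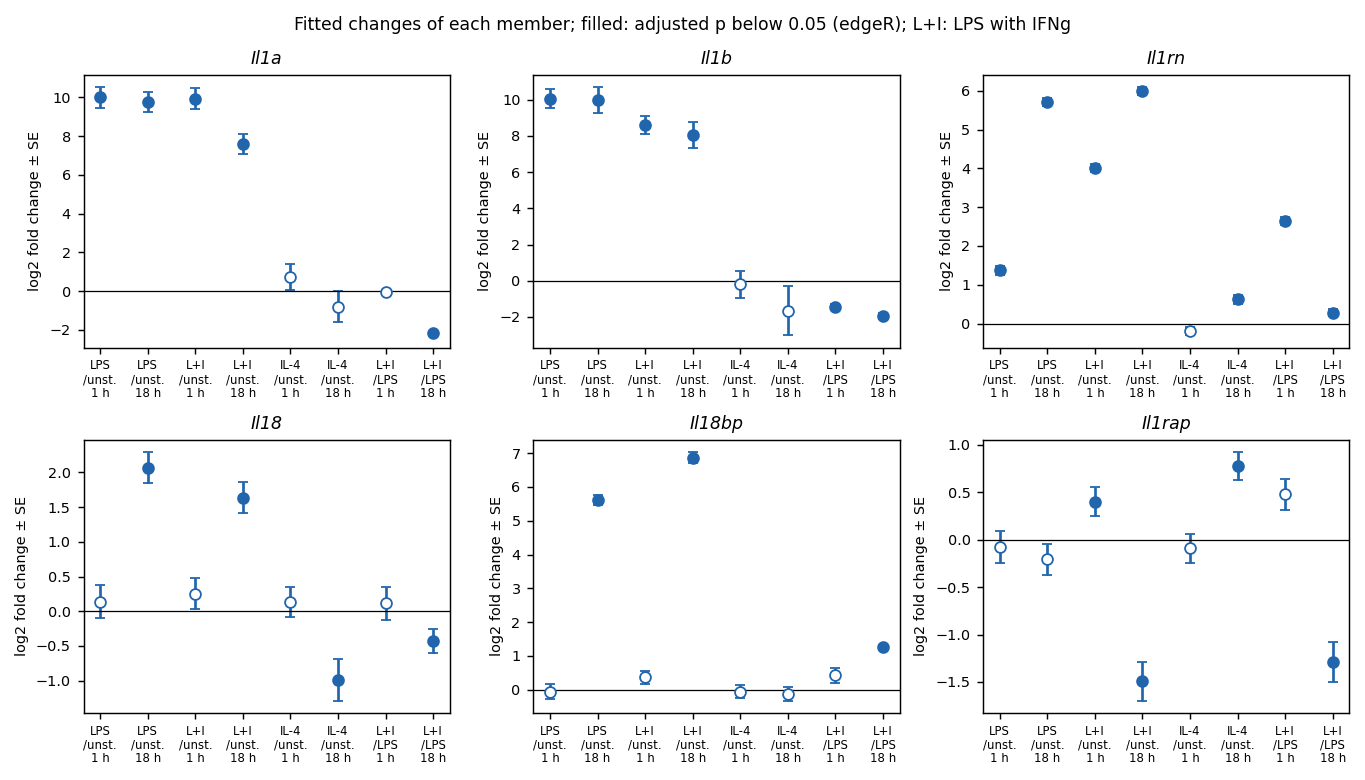
Fitted log2 fold changes (vertical axis, bars ± SE) of each gene in 8 comparisons (horizontal axis), from models with 3 libraries a group; filled points passed an adjusted p of 0.05, and L+I is LPS with IFNg. Il1a and Il1b lie near 10 after LPS and go down with IFNg at 18 h (-2.18 and -1.96), while Il1rn goes up with IFNg by 2.65 at 1 h and 0.28 at 18 h.

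The ratio of antagonist to agonist reads differed with both time and stimulus. Within libraries, Il1rn reads per Il1b read averaged 22.2 ± 2.16 in LPS with IFNg and 4.68 ± 0.436 after LPS at 18 h (SD, n = 3). At 1 h they averaged 2.98 ± 0.545 in LPS with IFNg and 0.168 ± 0.0105 after LPS. None of these 4 groups overlapped another: the lowest library with IFNg at 1 h had 2.44 and the highest LPS library 0.179, and at 18 h the lowest with IFNg had 20.0 and the highest LPS library 5.12. Unstimulated and IL-4 cells gave ratios from 30.6 to 915, which rest on 0 to 21 Il1b reads a library and are undefined for unstimulated 18 h replicate 2. Setting both agonists in the denominator gave the same order, with 14.9 reads in LPS with IFNg and 2.98 after LPS at 18 h, and 1.67 in LPS with IFNg and 0.131 after LPS at 1 h.

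The size of the ratio per length depends on the length used, since the annotated exons of Il1rn sum to 5535 bases, against 1907 for Il1b, while their coding parts are 563 and 807 bases. Per kb of merged exons the ratio of Il1rn to Il1b was 7.65 in LPS with IFNg and 1.61 after LPS at 18 h, and 1.03 in LPS with IFNg and 0.0579 after LPS at 1 h. Per kb of coding sequence it was 31.8 in LPS with IFNg and 6.71 after LPS at 18 h, and 4.27 in LPS with IFNg and 0.241 after LPS at 1 h. On either scale Il1b was ahead after LPS for 1 h and Il1rn ahead in both groups at 18 h; LPS with IFNg at 1 h was near 1 on the first scale.

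**Figure D3:**
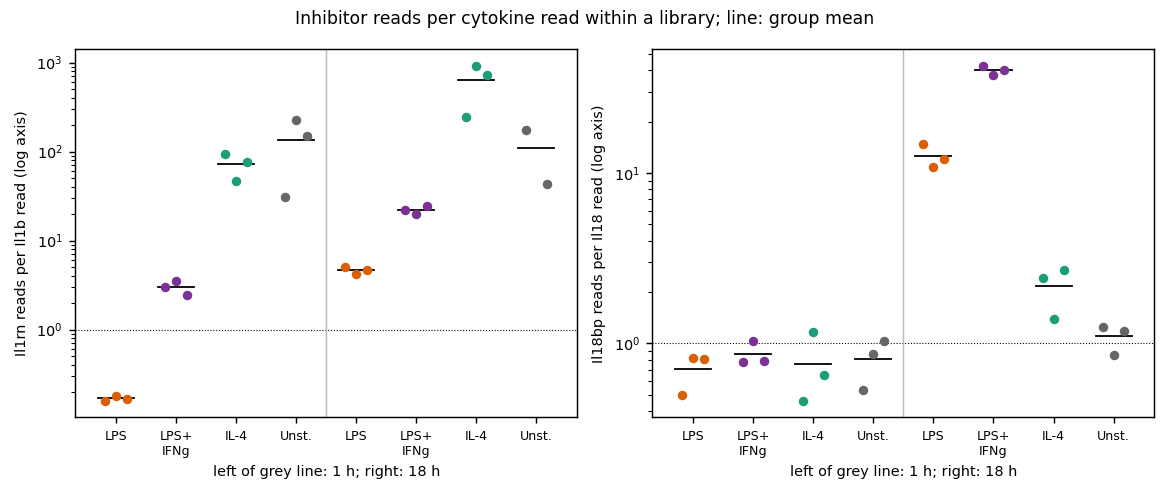
Reads of the inhibitor for each read of its cytokine within a library (log axes), Il1rn to Il1b on the left and Il18bp to Il18 on the right, with a point for each library and a line at the group mean; the dotted line marks 1 and unstimulated 18 h has a pair of points on the left, as its replicate 2 had no Il1b read. Among the LPS groups the mean Il1rn ratio is highest in LPS with IFNg at 18 h, at 22.2, and lowest after LPS for 1 h, at 0.168, and the Il18bp ratio is well above 1 in the LPS groups at 18 h.

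Il18 was expressed in every group at a low level and answered late. After LPS for 1 h it had 8.55, 5.16 and 8.01 CPM, against 7.46, 5.44 and 6.95 CPM in unstimulated cells, with full overlap (0.13, 95% interval -0.33 to 0.60). At 18 h it had 14.8, 21.9 and 18.7 CPM after LPS, against 3.39, 5.37 and 4.23 CPM in unstimulated cells, 4.19-fold higher with no overlap (2.07 ± 0.22, adjusted p = 9.0e-10). Without LPS 18 h replicate 2, the highest of these libraries, the change was 1.93.

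In LPS with IFNg Il18 had 8.34, 5.98 and 9.15 CPM at 1 h, within reach of the unstimulated range, and 12.6, 14.4 and 14.0 CPM at 18 h, 3.11-fold above unstimulated cells (1.64 ± 0.23, adjusted p = 1.1e-07). These 18 h libraries were just under the LPS ones (-0.43 ± 0.18, adjusted p = 0.046), a call that was lost with DESeq2 and when any of 5 of the 6 libraries was left out, with an adjusted p of 0.22 without LPS 18 h replicate 2. IL-4 for 18 h went the other way. Il18 had 1.95, 2.90 and 1.53 CPM in IL-4 cells, against the 3.39 to 5.37 CPM of unstimulated cells, 1.98-fold lower (-0.99 ± 0.30, adjusted p = 0.0085), and this was not called without unstimulated 18 h replicate 2 (-0.80, adjusted p = 0.068). IL-4 cells fell by 1.72 ± 0.28 on the log2 scale at 18 h relative to 1 h (adjusted p = 5.4e-06), where unstimulated cells gave -0.60 ± 0.25 without a call. On the other strand Il18 overlaps Bco2 and Tex12, with 0 shared exonic bases. Bco2 had fewer reads than Il18 and followed it in part, with 4.13 CPM after LPS for 18 h, 3.64 CPM in LPS with IFNg and 0.0463 CPM after IL-4, against 1.04 CPM in unstimulated cells.

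Il18bp, the soluble inhibitor of IL-18, had the largest late response relative to its early one. At 1 h it had 4.27, 4.27 and 6.50 CPM after LPS, against 4.01, 4.70 and 7.13 CPM in unstimulated cells, with no sign of a response (-0.054, 95% interval -0.49 to 0.38). At 18 h it had 218, 238.5 and 226 CPM after LPS, against 4.23, 4.62 and 5.02 CPM in unstimulated cells, 48.9-fold higher (5.61 ± 0.16, adjusted p = 3.6e-25). The 18 h response minus the 1 h response was 5.67 ± 0.27 (adjusted p = 1.2e-16).

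The late rise of Il18bp was larger in LPS with IFNg than in LPS alone. At 18 h the libraries with IFNg had 532, 539.6 and 562 CPM, all more than the highest LPS library, 2.39-fold above LPS alone (1.26 ± 0.08, adjusted p = 7.1e-14) and 117-fold above unstimulated cells (6.87 ± 0.16, adjusted p = 1.5e-27). At 1 h they had 6.49, 6.18 and 7.18 CPM, inside or close to the unstimulated range and not called (0.37, 95% interval -0.019 to 0.75), nor against LPS alone (0.42, 95% interval -0.0059 to 0.85). The effect of IFNg at 18 h exceeded that at 1 h by 0.84 ± 0.23 (adjusted p = 0.0061), a difference not called without LPS 1 h replicate 3 (0.63, adjusted p = 0.074). IL-4 left the gene between 3.70 and 6.21 CPM at 1 h and between 4.01 and 4.73 CPM at 18 h, overlapping unstimulated cells at both times. The overlapping gene Numa1 on the other strand shares 80 exonic bases with Il18bp. At 18 h Numa1 averaged 130.1 CPM in LPS with IFNg, 124 CPM after LPS and 127.7 CPM after IL-4, against 224 CPM in unstimulated cells. Unstimulated cells had 4254 Numa1 reads at 18 h and 4207 at 1 h, against 88 and 99 of Il18bp. Reads of this pair cannot be told apart without the strand setting. How far Numa1 reads add to the low Il18bp level was not tested. The folds against unstimulated cells, the 1 h comparisons and the low ratios of Il18bp to Il18 rest on that level.

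Reads of Il18bp per Il18 read averaged 39.9 ± 2.43 in LPS with IFNg at 18 h and 12.6 ± 2.00 after LPS for 18 h (SD, n = 3), with the lowest library with IFNg at 37.4 and the highest LPS library at 14.8. Unstimulated cells at 18 h averaged 1.10 ± 0.208, and all 1 h groups lay between 0.713 and 0.865 on average. IL-4 cells at 18 h averaged 2.17 ± 0.694, each above the 0.861 to 1.25 of unstimulated cells, where Il18 was lower and Il18bp was not called. Per kb of merged exons the ratio was 13.6 in LPS with IFNg and 4.29 after LPS at 18 h, so Il18bp transcripts exceeded those of Il18 in both. Per kb of coding sequence it was 35.1 in LPS with IFNg and 11.1 after LPS.

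Il1rap, the accessory receptor chain, was the one gene on the receiving side and was not called after LPS alone at either time. It had 12.6, 13.5 and 20.0 CPM after LPS for 1 h, against 13.7, 17.6 and 16.9 CPM in unstimulated cells (-0.075, 95% interval -0.40 to 0.25). At 18 h LPS libraries had 14.6, 9.17 and 17.4 CPM, against 16.6, 15.5 and 15.8 CPM in unstimulated cells. They straddle the unstimulated values, and the low one is LPS 18 h replicate 2; the change was -0.21 (95% interval -0.53 to 0.12) with it and 0.0020 without it, and -0.62 with a call (adjusted p = 0.0018) under library-size scaling.

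LPS with IFNg lowered Il1rap at 18 h. At 1 h the libraries with IFNg had 19.6, 22.5 and 21.4 CPM, above the unstimulated ones (0.40 ± 0.15, adjusted p = 0.048), a call lost with DESeq2, with library-size scaling (0.14) and when any of 5 of the 6 libraries was left out. Against LPS alone at 1 h the change was 0.48 ± 0.17 and was not called (adjusted p = 0.059). Of 13 alternatives 4 called it, with adjusted p from 0.0058 to 0.32 over the 13. These were a replicate block (0.48, adjusted p = 0.031), no filter on low counts, limma-voom, and leaving out LPS 1 h replicate 3. At 18 h they had 5.28, 6.26 and 5.49 CPM, below every other library of the study, 2.82-fold lower than unstimulated cells (-1.49 ± 0.20, adjusted p = 6.1e-08) and 2.44-fold lower than LPS alone (-1.29 ± 0.21, adjusted p = 4.7e-06). The effect of IFNg at 18 h minus that at 1 h was -1.76 ± 0.27 (adjusted p = 3.4e-06).

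IL-4 raised Il1rap at 18 h, to 26.0, 26.8 and 29.5 CPM, the 3 highest values of all 24 libraries, 1.71-fold above unstimulated cells (0.78 ± 0.14, adjusted p = 6.6e-05). At 1 h IL-4 cells had 14.7, 14.3 and 16.1 CPM, overlapping unstimulated cells (-0.092, 95% interval -0.40 to 0.22), and the IL-4 response at 18 h exceeded that at 1 h by 0.87 ± 0.21 (adjusted p = 0.0032). The antisense gene Gm20319 shares 552 exonic bases with Il1rap and, counted as a gene of its own, had 9.18% to 13.4% as many reads as Il1rap in each group; these reads cannot be told apart without the strand setting.

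Within each stimulus, 18 h was also set against 1 h. LPS cells at 18 h were higher than at 1 h for Il1rn (3.78 ± 0.10), Il18 (1.34 ± 0.21) and Il18bp (5.52 ± 0.18) and lower for Il1b, with 64.7% of all genes called (32.2% higher, 32.5% lower). LPS with IFNg at 18 h was higher for the same 3 genes, by 1.41 ± 0.10 for Il1rn, 0.79 ± 0.21 for Il18 and 6.36 ± 0.15 for Il18bp, and lower for Il1a (-2.16 ± 0.10), Il1b (-1.52 ± 0.16) and Il1rap (-1.90 ± 0.20), with 72.8% of genes called (35.7% higher, 37% lower). IL-4 cells at 18 h were higher for Il1rap (0.87 ± 0.14) and lower for Il18, with 41.1% of genes called (19.3% higher, 21.8% lower). For LPS with IFNg against LPS alone, Il1rn was higher and Il1b lower at 1 h, where 11.8% of genes were called (6.52% higher, 5.25% lower). At 18 h Il1rn and Il18bp were higher and the other 4 lower in that comparison, with 47.4% of genes called (24% higher, 23.4% lower).

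The response at 18 h minus that at 1 h was positive for 3 members and negative for none after LPS, where 54.2% of genes differed (27% higher, 27.2% lower). After LPS with IFNg it was positive for 3 and negative for 2 (64% of genes, 31.8% higher and 32.2% lower), and after IL-4 positive for 2 and negative for 1 (21.5%, 10.1% higher and 11.4% lower). For the effect of IFNg it was positive for 1 and negative for 3 (35%, 16.5% higher and 18.5% lower). These differences are not independent of each other. Those of LPS, LPS with IFNg and IL-4 use the same unstimulated libraries, and that of IFNg uses the same LPS and LPS with IFNg libraries as theirs.

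Ordered by group mean, Il1a ran from LPS at 1 h (442 ± 26.2 CPM, SD, n = 3) through LPS at 18 h and LPS with IFNg at 1 h, which overlap, to LPS with IFNg at 18 h (95.6 ± 6.36 CPM), and the 4 remaining groups overlap at 0.738 CPM or less. Il1b ran from LPS at 1 h (1555 ± 238 CPM) through LPS at 18 h (769.5 ± 109 CPM) and LPS with IFNg at 1 h (567 ± 147 CPM), which overlap, to LPS with IFNg at 18 h (197 ± 22.4 CPM). For Il1rn the order was LPS with IFNg at 18 h (4351 ± 113 CPM), LPS at 18 h (3577 ± 325 CPM), LPS with IFNg at 1 h (1635 ± 124 CPM) and LPS at 1 h (260.4 ± 32.6 CPM), with no overlap between neighbours, and unstimulated 18 h cells were lowest (68.3 ± 10.9 CPM). Il18 went from LPS at 18 h (18.5 ± 3.58 CPM) and LPS with IFNg at 18 h (13.7 ± 0.967 CPM) through the overlapping 1 h groups to unstimulated (4.33 ± 0.995 CPM) and IL-4 cells (2.12 ± 0.702 CPM) at 18 h. Il18bp had LPS with IFNg (544 ± 15.4 CPM) and LPS (228 ± 10.2 CPM) at 18 h on top, and the other 6 groups overlapped their neighbours between 4.29 and 6.61 CPM. Il1rap had IL-4 at 18 h (27.4 ± 1.81 CPM) and LPS with IFNg at 1 h (21.2 ± 1.44 CPM) at the top, 5 overlapping groups in the middle and LPS with IFNg at 18 h (5.68 ± 0.515 CPM) at the bottom.

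Scaled for merged exon length, the most abundant transcript of the set after LPS changed with time. After LPS for 1 h it was Il1b, at 815 ± 125 CPM per kb, followed by Il1a at 224 ± 13.3 CPM per kb. In LPS with IFNg at 1 h Il1b was at 297 ± 76.9 and Il1rn at 295 ± 22.3 CPM per kb, within their spread. Per kb of coding sequence, Il1rn had 4.27 times the level of Il1b in that group, from 3.49 to 5.05 over its libraries. At 18 h Il1rn led, with 786 ± 20.4 CPM per kb in LPS with IFNg and 646 ± 58.8 CPM per kb after LPS. Il18 stayed at 17.9 ± 3.47 CPM per kb or less throughout, and Il1rap at 2.42 ± 0.159 CPM per kb or less.

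Across the 8 group means of log2 CPM, Il1a and Il1b were close to each other (Pearson r = 0.995) and Il18bp and Il1rap ran opposite (r = -0.79); the points share their libraries, and these values are descriptions. Of 9647 genes averaging 5 CPM or more over all libraries, patterns very like that of Il1a were those of Bcl2a1d (r = 0.989), an anti-apoptotic gene with near-identical copies whose reads may be split, and Nfkb2 (0.985), an NF-kappaB subunit gene. For Il1b they were Tnip1 (0.991), an A20-binding NF-kappaB inhibitor gene, Nfkb2 (0.989) and Bcl2a1d (0.986). Il1rn was most like Dnah17 (0.990), Pgs1 (0.989) and Clp1 (0.985), and Il18 like Ms4a14, Mbd2 and Rabggta (each 0.984). Such likeness is of shape and not of size. Group means of Clp1 ran from 13.3 to 23.5 CPM, beside 68.3 to 4351 CPM for Il1rn. Il18bp was most like Phyh (0.999), a peroxisomal enzyme gene, Tspo (0.998), a mitochondrial membrane protein gene, and Casp1 (0.998), the protease of IL-1 beta and IL-18 maturation. For Il1rap they were Mcts1 (0.987), Rpl19-ps11 (0.987) and Dnajc3 (0.982).

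The other ligands of the family were mostly absent. Of 6 listed, 2 had enough reads to be tested, Il33 and Il36g, which signal through receptors that use the Il1rap chain. Il33, an alarmin, had 143 reads in LPS with IFNg at 18 h and none in unstimulated cells, at least 53.3-fold higher by a floor of 3 reads over the group, and 3 reads in LPS alone. At 1 h it had 9 reads in LPS with IFNg and none in unstimulated cells (at least 3.63-fold higher). Il36g, an IL-36 agonist listed under its older symbol Il1f9 in the annotation, had 102 reads after LPS for 18 h and 241 in LPS with IFNg, against 5 in unstimulated cells (4.52 ± 0.74 and 5.65 ± 0.73). It was higher in LPS with IFNg than in LPS alone at 18 h, 14.3 ± 2.82 against 6.56 ± 2.30 CPM (1.12 ± 0.23, adjusted p = 0.00013). Already at 1 h Il36g had 36 reads after LPS and 95 in LPS with IFNg, against 2 in unstimulated cells. Those are 26.1-fold (95% counting interval 6.72 to 224) and 57.5-fold (15.5 to 482) higher in counts, and both were called. LPS with IFNg was above LPS alone at 1 h as well (1.14 ± 0.34, adjusted p = 0.016).

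Of 9 receptor genes beside Il1rap, 5 were tested, and they went different ways. Against unstimulated cells at 18 h, LPS raised 2 and lowered 3, LPS with IFNg raised 1 and lowered 4, and IL-4 raised 3 and lowered none, where 63.1%, 72.2% and 39.2% of all genes were called. Il1r1, the signalling receptor of IL-1, had 190 reads after LPS for 18 h, 21 in LPS with IFNg and 59 after IL-4, against 2 in unstimulated cells; the count ratios were 115-fold (95% counting interval 31.4 to 955), 11.7-fold (2.87 to 103) and 24.7-fold (6.53 to 208). LPS with IFNg was below LPS alone, 1.22 ± 0.407 against 12.1 ± 0.578 CPM (-3.27 ± 0.30, adjusted p = 3.3e-12). Il1rl1, the IL-33 receptor that pairs with the Il1rap chain, averaged 71.3 ± 7.34 CPM after IL-4 for 18 h, against 5.60 ± 0.761 CPM in unstimulated cells (3.67 ± 0.16, adjusted p = 2.8e-18), and had 3 reads after LPS and 2 in LPS with IFNg, against 106. Those are 29.2-fold (9.73 to 144) and 47.4-fold (12.8 to 397) lower in counts.

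Il1rl2, the IL-36 receptor, averaged 19.6 ± 3.73 CPM after IL-4 and 9.92 ± 1.33 CPM after LPS for 18 h, against 1.95 ± 0.239 CPM in unstimulated cells (3.32 ± 0.29 and 2.34 ± 0.31), and 0.752 ± 0.498 CPM in LPS with IFNg (-1.33 ± 0.51, adjusted p = 0.015). Sigirr, a receptor that dampens IL-1 and TLR signals, was lower at 18 h, 0.370 ± 0.296 CPM after LPS and 0.345 ± 0.141 CPM in LPS with IFNg, against 1.98 ± 0.434 CPM in unstimulated cells (-2.33 ± 0.61 and -2.43 ± 0.61). Il18rap, the accessory chain of the IL-18 receptor, averaged 28.5 ± 0.304 CPM in LPS with IFNg at 1 h, against 4.05 ± 1.07 CPM after LPS and 5.52 ± 0.483 CPM in unstimulated cells (2.36 ± 0.16 against unstimulated, adjusted p = 4.0e-14; 2.79 ± 0.19 against LPS). At 18 h it averaged 1.87 ± 0.310 CPM in LPS with IFNg and 0.618 ± 0.361 CPM after LPS, against 3.48 ± 0.466 CPM in unstimulated cells. LPS with IFNg was again above LPS alone (1.53 ± 0.45, adjusted p = 0.0038), and the effect of IFNg at 18 h minus that at 1 h was not called (-1.26 ± 0.49, adjusted p = 0.098). Il1r2, the decoy receptor, and Il18r1 had too few reads to be tested.

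**Figure D4:**
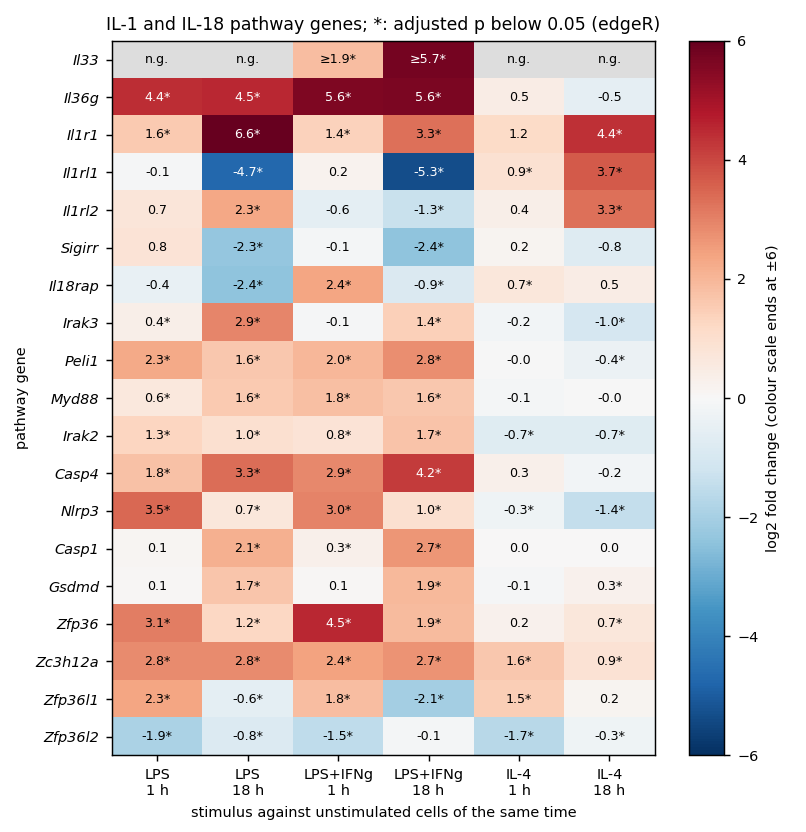
Fitted log2 fold changes of 19 pathway genes (rows) against unstimulated cells of the same time in 6 comparisons (columns), on a colour scale that ends at ±6; a star marks an adjusted p below 0.05, ≥ a bound for a group with no reads, n.g. no fold given, and values for groups of 1 to 3 reads are fitted ones. At 18 h Il1rl1 is at 3.67 after IL-4 and below 0 in both LPS groups, while rows of signalling and release genes are mostly above 0 after LPS.

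Of 17 tested genes of signalling below the receptors, 8 rose and 2 fell after LPS for 1 h, 12 rose and 1 fell after LPS for 18 h, and 11 rose and 3 fell in LPS with IFNg at 18 h, with medians of 0.087, 0.40 and 0.57 beside -0.0020, 0.0060 and -0.0046 over all genes, of which 22.2%, 63.1% and 72.2% were called. Irak3, an inhibitory kinase of the pathway, averaged 54.5 ± 0.211 CPM in LPS with IFNg and 153 ± 9.15 CPM after LPS for 18 h, against 20.1 ± 0.712 CPM in unstimulated cells, and was lower with IFNg than with LPS alone (-1.49 ± 0.08, adjusted p = 3.9e-16). Myd88, the adaptor of IL-1 and IL-18 receptors, was 1.79 ± 0.08 higher in LPS with IFNg at 1 h and 0.61 ± 0.08 higher after LPS. Peli1, a ubiquitin ligase of the pathway, was 2.27 ± 0.10 higher after LPS for 1 h and 2.77 ± 0.10 higher in LPS with IFNg at 18 h, and Irak2, a signalling kinase, was 1.69 ± 0.10 higher in LPS with IFNg at 18 h.

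Of 12 genes of cytokine maturation and release, 3 rose and none fell after LPS for 1 h, 10 rose and 1 fell after LPS for 18 h, and 8 rose and 3 fell in LPS with IFNg at 18 h (medians 0.089, 0.73 and 1.02), where 22.2%, 63.1% and 72.2% of all genes were called. Nlrp3, the sensor that starts an inflammasome, rose early: it averaged 1134 ± 88.2 CPM after LPS for 1 h, against 103 ± 4.78 CPM in unstimulated cells (3.46 ± 0.07, adjusted p = 8.7e-25), and was 0.69 ± 0.08 higher at 18 h. Casp1 rose late, to 337 ± 49.4 CPM after LPS and 491 ± 15.7 CPM in LPS with IFNg at 18 h, against 77.2 ± 0.221 CPM in unstimulated cells (2.12 ± 0.09 and 2.67 ± 0.09), and was not called after LPS for 1 h (0.12 ± 0.09). Casp4, the caspase that senses LPS in the cytosol, was 1.75 ± 0.15 higher after LPS for 1 h and 4.20 ± 0.15 higher in LPS with IFNg at 18 h. Gsdmd, the pore protein through which mature IL-1 beta leaves the cell, was 1.93 ± 0.09 higher in LPS with IFNg at 18 h.

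Another list holds 9 RNA-binding regulators of cytokine mRNA stability, among them the tristetraprolin family, which promotes decay of AU-rich mRNAs, and Elavl1 (HuR), which stabilises such mRNAs. Of these, 5 rose and 1 fell after LPS for 1 h, 2 rose and 4 fell after LPS for 18 h, and 3 rose and 3 fell in LPS with IFNg at 18 h, where 22.2%, 63.1% and 72.2% of all genes were called. Elavl1 was among the 5 (0.40 ± 0.08, adjusted p = 0.00038). Zfp36, encoding tristetraprolin, averaged 3602 ± 103 CPM in LPS with IFNg at 1 h and 1342 ± 148 CPM after LPS, against 158.5 ± 17.8 CPM in unstimulated cells, and was 1.42 ± 0.10 higher with IFNg than with LPS alone (adjusted p = 8.9e-13). Zc3h12a, the endonuclease regnase-1, was 2.83 ± 0.10 higher after LPS for 1 h and 2.83 ± 0.12 higher at 18 h. Of the genes related to Zfp36, Zfp36l1 changed by 2.35 ± 0.15 after LPS for 1 h, and by -0.60 ± 0.16 (adjusted p = 0.0021) after LPS and -2.06 ± 0.20 in LPS with IFNg at 18 h. Zfp36l2 changed by -1.91 ± 0.09 after LPS for 1 h and -0.81 ± 0.09 at 18 h.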

How the data were processed

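Stranded mRNA libraries of 24 samples were sequenced, per the labels' protocols. The deposited files hold raw read counts per Ensembl gene; the submitters' processing notes list STAR, featureCounts, DESeq2, deepTools and GRCm38, without versions, and the annotation release and strand setting are not given in the sources used here. Of 43629 rows, 42548 matched GENCODE M21 by identifier.

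Counts were tested with edgeR 4.0.16 (R 4.3.3): TMM scaling, filterByExpr by group with a minimum count of 10 (12765 genes kept, 30864 left out), 1 term per group over all 24 libraries, quasi-likelihood tests, and Benjamini-Hochberg adjustment over all tested genes in each comparison, called below 0.05. SE are Wald errors and 95% intervals are built from them. Intervals on count ratios and the floor of 3 reads over a group cover counting error only. The steps were tested on simulated data. Alternatives were median-of-ratios and library-size scaling, no filter, DESeq2 1.42.0, limma-voom (limma 3.58.1), a fit of the compared groups alone, a replicate block, and leaving out each library.

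All 6 members are described. From each pathway list the called genes with the largest changes against unstimulated cells were named, at most 4 a list, with set receptor and inflammasome genes besides, and for each member the 3 genes with the most similar group means. For Il1a, 1 of these is not reported here. The members and lists were chosen with earlier results of these data known. Lists are given by counts and medians, with no test.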

Additional observations from a re-analysis of the deposited data

Results flagged for a closer look

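For 5 genes of the set, a response differed between 18 h and 1 h by a test of the difference itself, in edgeR's quasi-likelihood fit of all 24 libraries; values are the log2 response at 18 h minus that at 1 h. For Il1a the difference was -2.35 in LPS with IFNg (adjusted p = 0.0092) and -2.13 for the effect of IFNg on LPS. The first of these was not called without unstimulated 18 h replicate 3 (-0.88, adjusted p = 0.59) or with limma-voom. Il1rn differed by 4.34 for LPS, 1.97 for LPS with IFNg, 0.82 for IL-4 and -2.37 for the effect of IFNg. Il18 differed by 1.93 for LPS, 1.39 for LPS with IFNg and -1.12 for IL-4 (adjusted p = 0.029), the last not called when any of 6 single libraries was left out. Il18bp differed by 5.67 for LPS, 6.50 for LPS with IFNg and 0.84 for the effect of IFNg. Il1rap differed by -1.90 for LPS with IFNg, 0.87 for IL-4 and -1.76 for the effect of IFNg. Il1b gave no called difference in this fit, with -0.067 for LPS (95% interval -1.79 to 1.65) and -0.57 for LPS with IFNg, both against few reads in unstimulated cells. For the effect of IFNg on Il1b the difference was -0.51, which 4 of 19 alternatives called.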

How the results depend on the processing

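Among 663 log2 changes recomputed under the other settings, 633 kept direction and side of the threshold, 5 lost a call, 12 gained one and 13 uncalled values changed sign; with a library left out the numbers were 653, 21, 5 and 41 of 720. Counts of members called stayed within 1.5 times in 111 of 112 and 120 of 120 recomputations, the exception being IL-4 at 18 h against 1 h with no filter, 4 members (2 higher, 2 lower) against 2. The cause was not tested unless named.

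The sign changes with library-size scaling were Il18 with LPS (-0.056) and LPS with IFNg (-0.015) against unstimulated cells at 1 h, and Il1rap in unstimulated cells at 18 h against 1 h (0.073). The last also turned with median-of-ratios scaling (0.010), DESeq2 (0.0090), limma-voom (0.0070) and the compared groups alone (0.015). With limma-voom, Il1a gave 0.0098 for IL-4 against unstimulated at 18 h, -0.49 for unstimulated 18 h against 1 h and 0.46 for the LPS response at 18 h minus 1 h. Il1b gave 0.20 for IL-4 at 1 h, 0.52 for the LPS response at 18 h minus 1 h and 0.037 for that of LPS with IFNg.

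Leaving out a library gave these ranges where a sign changed. Against unstimulated cells at 1 h, LPS gave -0.029 to 0.33 for Il18, -0.26 to 0.19 for Il18bp and -0.30 to 0.045 for Il1rap, and IL-4 gave -0.23 to 0.18 for Il18bp and -0.65 to 1.09 for Il1b. At 18 h, IL-4 gave -1.40 to 0.67 for Il1a and -2.34 to 0.42 for Il1b, and LPS gave -0.41 to 0.0020 for Il1rap. LPS with IFNg against LPS at 1 h gave -0.077 to 0.28 for Il18. For 18 h against 1 h, LPS gave -0.074 to 0.036 for Il1a and -0.33 to 0.087 for Il1rap, and unstimulated cells gave -1.27 to 0.80 for Il1a, -3.03 to 0.34 for Il1b, -0.32 to 0.092 for Il18bp and -0.12 to 0.078 for Il1rap. The LPS response at 18 h minus 1 h gave -0.81 to 1.26 for Il1a, -1.34 to 2.02 for Il1b and -0.33 to 0.090 for Il1rap, that of LPS with IFNg -1.86 to 1.50 for Il1b, and that of IL-4 -2.75 to 0.62 for Il1b and -0.30 to 0.11 for Il18bp.

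Library-size scaling changed 4 of 96 calls: beside those of Il1rn, with IFNg at 18 h, and Il1rap, given above, Il1rn in IL-4 cells at 18 h against 1 h was called (0.27, adjusted p = 0.031). Over all genes it called 4443 after LPS for 1 h (895 higher, 3548 lower), against 2837 (1376 higher, 1461 lower), and 6342 in LPS with IFNg at 1 h (1088 higher, 5254 lower), against 3755 (1879 higher, 1876 lower). Unstimulated 18 h against 1 h gave between 863 and 997 calls without 1 of 4 single libraries, against 1533. Replicate numbers were not taken to pair samples across the study, since the labels do not say that they do. Of 84 same-number pairs 49 had a correlation of deviations over 0.1 (median 0.149, range -0.273 to 0.726), so equal numbers shared deviations in part. All 3 numbers were over 0.1 in 3 of 12 pairs of groups compared (LPS with IFNg against LPS at 1 h and at 18 h, IL-4 against unstimulated at 1 h). The replicate block added 3 of 96 calls, for the effect of IFNg on Il1b at 18 h minus 1 h (-0.50), Il1rn in IL-4 cells at 18 h against 1 h (0.26) and Il1rap in LPS with IFNg against LPS at 1 h (0.48), and 54 pairs correlated best with their own number. Without LPS 18 h replicate 2, 1 of 30 calls changed (Il18 with IFNg), and without IL-4 18 h replicate 2, 0 of 18. Depth limits Il1a and Il1b where no LPS was given, at 0 to 21 reads a library.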
